A study of Homo sapiens with 39 samples.

Results

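U2AF1 is the small subunit of the U2 auxiliary factor, a splicing factor that contacts the AG at the 3-prime end of introns. The opposite end, the 5-prime splice site or donor, begins with GT in the DNA letters used here and is read by U1 snRNP, a complex of U1 RNA and proteins. The clusters described here are the sites of U2AF1 contact that the authors' annotation placed across an exon and the start of the following intron. They were chosen by that annotation alone: coding exon to intron, 5-prime UTR to intron, 3-prime UTR to intron, or lincRNA exon to lincRNA intron. They numbered 2340 of the 148336 clusters in 3 lists.

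The lists came from PAR-CLIP, in which RNA bearing a photoreactive uridine analogue is crosslinked to protein and the contacts appear as T-to-C conversions in the reads. It was done in Flp-In-293, a derivative of the HEK 293 human embryonic kidney line, with FLAG-HA tagged U2AF1, either wild type (WT) or carrying the S34F substitution, a recurrent mutation of U2AF1 in cancer. One list was from WT protein in the cytoplasm, one from S34F protein in the cytoplasm and one from WT protein on chromatin. Each list joined 2 replicates, A and B, so that a group was 1 list and no test between lists was possible. Intervals on shares are exact 95% Clopper-Pearson intervals that cover counting error only, since PCR copies are not independent molecules. A second assay, RNA immunoprecipitation (RIP), was done in human bronchial epithelial cell (HBEC) lines that were WT, S34F or FS, a U2AF1 frame shift per the labels, with 1 U2AF1 precipitate (IP), 1 control precipitate (IgG) and 1 cytosol library per line. Whether any of these lines was a single clone is not given in the sources used here.

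No exon annotation of the files' build was used here, so donors are read from the letters alone. The windows below, of at most 30 bases, are read from the cluster sequences in the lists, 5-prime to 3-prime on the strand of the gene. Capitals mark GTNAG, the donor GT with the A and G that most often follow it, or a GT at the last 2 bases of the cluster. The first set is shown because GTNAG stands inside the cluster with bases on both sides of it, which would be the exon and the intron.
STRAP, WT cytoplasm, chr12:16050933-16050962, plus strand: taatagtggagaagaattagGTGAGttgtc
NONO, WT cytoplasm, chrX:70518338-70518367, plus strand: tgggtcagatggctatgggagGTAAGgact
EEF2, WT cytoplasm, chr19:3982231-3982260, minus strand: aagctgtggggtgacagGTGAGccccgcgg
HNRNPH1, S34F cytoplasm, chr5:179050621-179050650, minus strand: agtcgcgtgtctagGTGAGtcgcggtgggt
IARS, WT cytoplasm, chr9:95015636-95015665, minus strand: aatgaaccgcagaagattaaagGTAAGtgc
MED6, WT cytoplasm, chr14:71059586-71059615, minus strand: aaagatcatgaagagcaagGTAAGtagaac
U2AF1, WT cytoplasm, chr21:44514573-44514599, minus strand: atggccgccgtcgcaagaaGTGAGtat

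Some clusters ended in a GT, though not always in GGT. Those of CKB in WT cytoplasm and EIF4A2 in S34F cytoplasm ended otherwise and held GTGAG further upstream. The second set, all ending in GGT, is shown because the cluster stopped at the GT itself. If that GT is the donor, no base of the intron beyond its first 2 was covered.
SAT1, WT cytoplasm, chrX:23803519-23803548, plus strand: gacttcttcgtgatgagtgattatagagGT
NACA, S34F cytoplasm, chr12:57108144-57108173, minus strand: gagtcggagtgaaaagaaggcacggaagGT
DDX17, WT cytoplasm, chr22:38891799-38891828, minus strand: ggtccccagattcgagacttggaaagagGT
EIF4G2, S34F cytoplasm, chr11:10820758-10820787, minus strand: cactgctataacagcaacttcccaaaagGT

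One further window is shown because its letters resemble the other end of an intron: a run of T and an AG stand directly before the GTGAG.
PRPF8, S34F cytoplasm, chr17:1577717-1577746, minus strand: atttttttcagGTGAGggctttcctggatt
A match to these letters is a description and not proof of a splice site. Positions are as the lists give them, on a build that is not stated. Of the 2303 clusters with a symbol in the RIP tables, 99.7% lay within the span those tables give for the gene, against 12.3% of 2155 within the RefSeq spans of GRCh38.

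By number, and with all deposited clusters counted, donor clusters were a similar share of the lists. They were 405 of 26613 clusters in WT cytoplasm (1.52%, 1.38 to 1.68), 434 of 28828 in S34F cytoplasm (1.51%, 1.37 to 1.65) and 1501 of 92895 on WT chromatin (1.62%, 1.54 to 1.70). Clusters across the intron end and the next exon, the known site of U2AF1, differed in share between cytoplasm and chromatin. They were 2.80% of clusters in WT cytoplasm (2.61 to 3.01), 3.42% in S34F cytoplasm (3.21 to 3.64) and 17.8% on WT chromatin (17.6 to 18). The donor share depended on what was counted. Of cluster reads, donor clusters held 1.93% in WT cytoplasm, 1.61% in S34F cytoplasm and 3.99% on chromatin. With at least 10 reads a cluster they were 2.24, 2.19 and 1.68% of clusters, and with at least 3 conversion positions 2.80, 2.33 and 2.41%. The donor side held 35.2% of all junction clusters in WT cytoplasm (32.4 to 38.0), 30.6% in S34F cytoplasm (28.2 to 33.0) and 8.32% on chromatin (7.92 to 8.74). The intervals of the WT and S34F cytoplasmic lists overlapped for both donor shares and did not for the share across the intron end. Such intervals leave out the spread between replicates and treat clusters as independent. Their overlap therefore does not show equality, and their separation does not show an effect of S34F. No difference between these lists was tested.

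**Figure D1:**
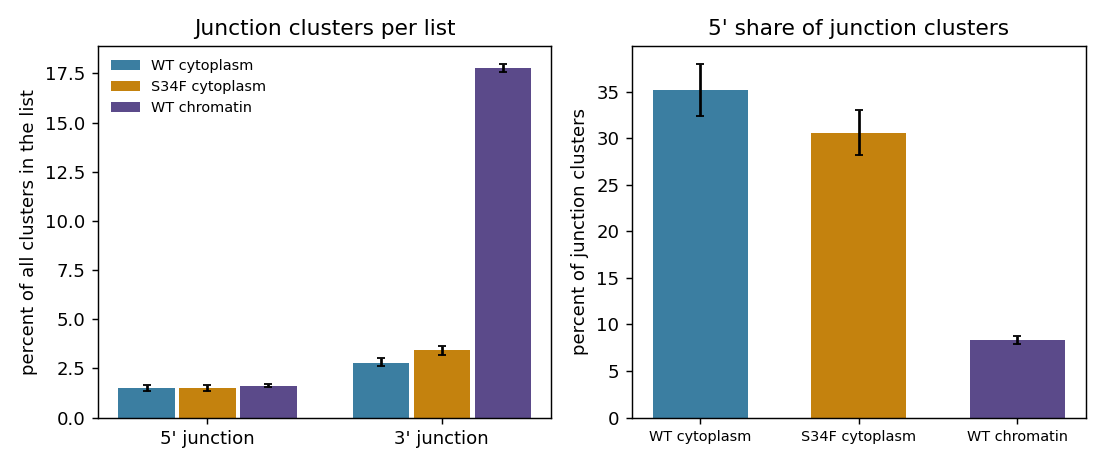
Left, the percent of each list's clusters that lie at 5-prime or 3-prime junctions. Right, the 5-prime clusters as a percent of junction clusters. Bars are the 3 lists and error bars exact 95% intervals for counting error. The 5-prime bars are level at 1.52, 1.51 and 1.62% while the 3-prime bar of chromatin reaches 17.8%.

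Most donor clusters lay at the end of a coding exon: 323 in WT cytoplasm, 346 in S34F cytoplasm and 1367 on chromatin. The end of a 5-prime UTR exon came next with 65, 67 and 77 clusters, followed by 3-prime UTR exons with 10, 10 and 29 and lincRNA exons with 7, 11 and 28. The 28 lincRNA clusters on chromatin held 31.9% of the 188510 donor reads of that list. Nearly all of these were in XIST, the long RNA of the inactive X chromosome, whose 8 clusters summed to 57311 reads. Without XIST the donor share of chromatin cluster reads went from 3.99 to 2.85%. The third-ranked cluster of S34F cytoplasm, in HMGN1, was annotated to a lincRNA although that symbol is of a protein-coding gene for a nucleosome-binding protein.

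The letters GTNAG (searched on the given strand only) were present in 39.3% of donor clusters in WT cytoplasm (34.5 to 44.2), 41.2% in S34F cytoplasm (36.6 to 46.0) and 40.2% on chromatin (37.7 to 42.8). In 3-prime junction, coding and intron clusters of the 3 lists the share ran from 5.27 to 7.81%. The rule did not use the sequence, but an annotated donor implies a GT, so these shares check the annotation. Donor clusters were longer, with medians of 36, 38 and 41 bases against 28, 28 and 33 for 3-prime junction clusters in WT cytoplasm, S34F cytoplasm and chromatin. Among clusters of 30 to 45 bases, a range chosen after seeing the data, 29.0, 32.3 and 35.7% of donor clusters held GTNAG, against 7.22, 6.81 and 7.14% of coding clusters. The 6 letters GTAAGT or GTGAGT, which pair with U1 RNA over a longer stretch, stood in 16.8, 16.1 and 13.4% of donor clusters.

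A GT at the cluster end was also common, whether or not it was the donor itself. The last 2 bases were GT in 37.3% of donor clusters in WT cytoplasm (32.6 to 42.2), 40.3% in S34F cytoplasm (35.7 to 45.1) and 27.4% on chromatin (25.1 to 29.7). Coding clusters ended so in 8.68, 9.48 and 5.46%, 3-prime junction clusters in 13.1, 12.7 and 5.85% and intron clusters in 12.1, 13.4 and 6.43%. A GT followed by 1 more base was found in 8.15, 6.91 and 7.99% of donor clusters. Every class had more clusters with 0 than with 1 base after a GT: in WT cytoplasm coding clusters went from 8.68 to 4.62%, 3-prime junction clusters from 13.1 to 4.42% and intron clusters from 12.1 to 5.72%. GGT, the commonest form at a donor, ended 27.7, 28.3 and 18.5% of donor clusters. Divided so that a GT at the end came first, 151 clusters ended in GT, 133 held GTNAG elsewhere and 121 did neither in WT cytoplasm. The corresponding counts were 175, 142 and 117 in S34F cytoplasm and 411, 520 and 570 on chromatin. The clusters that ended in GT and those with GTNAG elsewhere had median reads of 17 and 17 in WT cytoplasm, 13.0 and 14.5 in S34F cytoplasm and 40 and 41 on chromatin.

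**Figure D2:**
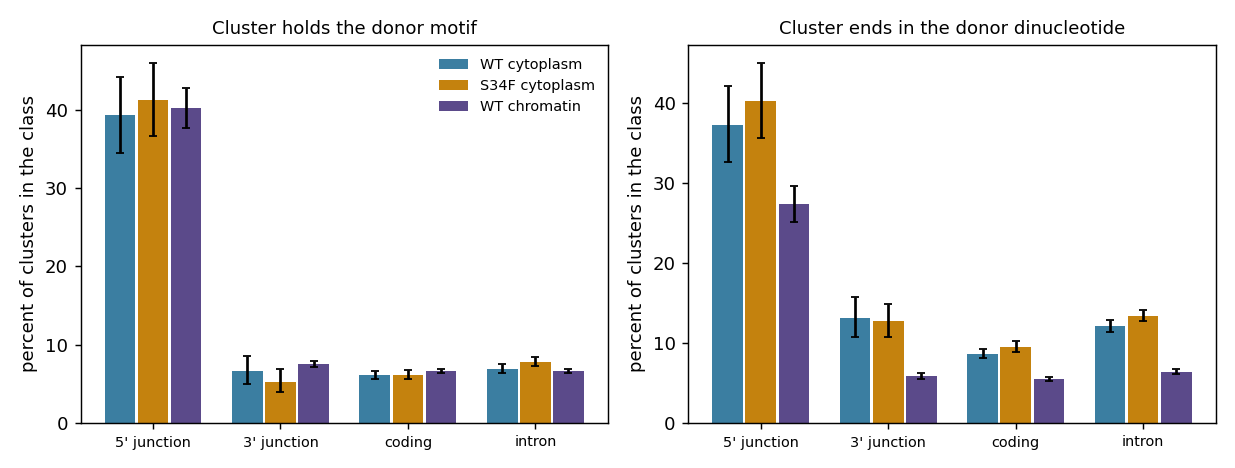
Percent of clusters that hold the donor motif (left) or end in the donor dinucleotide (right), by annotation class and list, with exact 95% intervals for counting error. The 5-prime junction bars, at 27.4 to 41.2%, stand above every other class in all 3 lists.

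**Figure D3:**
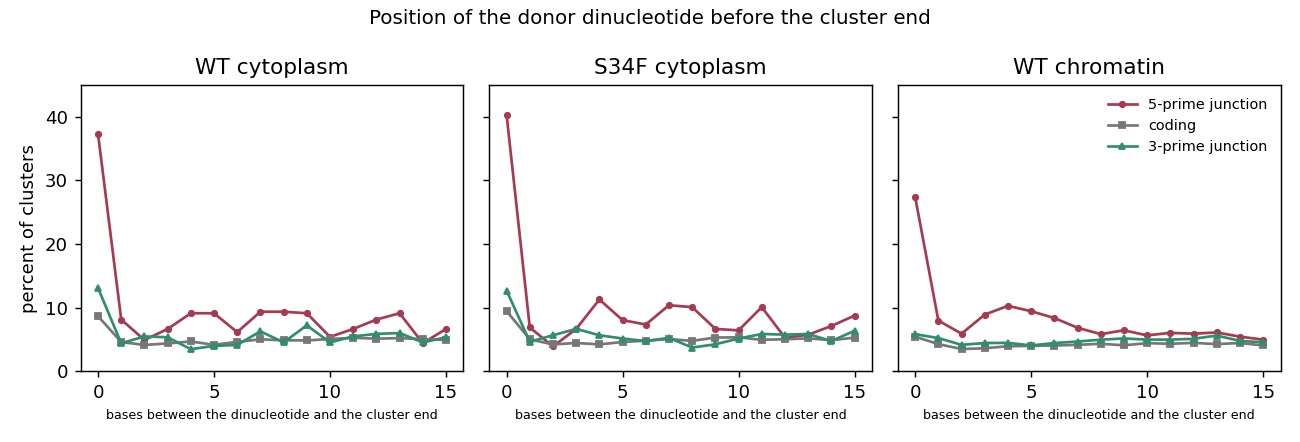
Percent of clusters with the dinucleotide at each number of bases before the cluster end, for 3 annotation classes in each list. The 5-prime junction line begins at 37.3, 40.3 and 27.4% at 0 bases and is at 8.15, 6.91 and 7.99% at 1 base.

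Runs of 8 pyrimidines (C or T), the tract bound by the large subunit of U2AF, were less common in donor than in 3-prime junction clusters. They stood in 13.1% against 37.4% in WT cytoplasm, 11.8% against 33.1% in S34F cytoplasm and 17.4% against 36.3% on chromatin. T made up 24.0, 25.5 and 26.1% of donor bases and 32.4, 33.3 and 31.9% of 3-prime junction bases. Since a conversion needs a T, the base composition moves with the class, and its part in the number of clusters was not tested.

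Within clusters that held the 7 letters AGGTNAG, the mode position that the lists give for each cluster fell on either side of the GT. It lay before the G in 45.6% of 68 clusters in WT cytoplasm (33.5 to 58.1), 34.7% of 72 in S34F cytoplasm (23.9 to 46.9) and 59.9% of 227 on chromatin (53.2 to 66.3). It lay beyond GTNAG, which would be inside the intron if that GT is the donor, in 51.5, 47.2 and 30%. The mode fell on GTNAG itself in 2.94% of these clusters in WT cytoplasm, 18.1% in S34F cytoplasm and 10.1% on chromatin.

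How the deposited T-to-C fraction was computed is not given in the sources used here. On chromatin it equalled, within 0.001, the reads of the T-to-C type over the sum of the 3 read types listed for the cluster in 100.0% of clusters. In WT and S34F cytoplasm this held in 63 and 76.5%, so levels are compared within a list. The median over donor clusters was 0.615 in WT cytoplasm (quartiles 0.444 and 0.857), 0.625 in S34F cytoplasm (0.444 and 0.833) and 0.950 on chromatin (0.761 and 1.00). The 3-prime junction clusters had 0.825, 0.838 and 0.953, and coding clusters 0.636, 0.667 and 1.00. Both cytoplasmic lists thus had donor medians near those of coding clusters and below those of 3-prime junction clusters. At 30 to 45 bases and at least 10 reads the donor, 3-prime junction and coding medians were 0.550, 0.690 and 0.50 in WT cytoplasm and 0.50, 0.727 and 0.50 in S34F cytoplasm. On chromatin they were 1.00, 0.947 and 0.950. Median reads per donor cluster were 17, 14 and 39, from 6.00, 7.00 and 6.00 distinct reads.

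In WT cytoplasm SAT1, an enzyme of polyamine breakdown, had 284 reads with a T-to-C fraction of 0.444. STRAP, a WD-repeat protein, followed with 222 reads and NONO, a paraspeckle RNA-binding protein, with 211. EEF2, the elongation factor that moves the ribosome along mRNA, had 202 and CKB, brain creatine kinase, 168. Their fractions ran from 0.149 in EEF2 to 0.444 in SAT1, all below the list's median of 0.615.

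In S34F cytoplasm NACA, a subunit of the complex that binds nascent polypeptides, had 768 reads and a fraction of 0.121. XIST had 371 reads, HMGN1 289 and HNRNPH1 (a splicing regulator) 186. The XIST and HMGN1 clusters neither ended in GT nor held GTNAG. NACA was the highest of the cytoplasmic clusters in reads and among the low ones in conversion.

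On chromatin the 5 clusters with the most reads were all in XIST, from 6883 to 17638 reads and from 197 to 520 bases long. The longest, with 17638 reads, neither ended in GT nor held GTNAG, while the others held GTNAG. Outside lincRNA, a ranking made after the values were seen, HNRNPA2B1 had 2052 reads, HNRNPU 1740, the RNA helicase DDX17 1230, SFPQ 1192 and PRKDC 1171. HNRNPA2B1 and HNRNPU are RNA-binding proteins of the hnRNP family, SFPQ is the partner of NONO and PRKDC is the catalytic subunit of DNA-dependent protein kinase. By number of donor clusters PRKDC led with 16, followed by IARS (isoleucyl-tRNA synthetase) and HEATR1 (a ribosome biogenesis factor) with 13 each, and DNMT1 (the maintenance DNA methyltransferase) and UBR4 (a ubiquitin ligase) with 9 each. These are genes with many clusters when all classes are counted: PRKDC had 209, IARS 136, HEATR1 109, DNMT1 87 and UBR4 201.

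Most donor clusters were found in 1 list only. WT and S34F cytoplasm shared 34 by at least 1 base on the same strand, 8.40% of the former and 7.83% of the latter. For 3-prime junction clusters that share was 10.1 and 7.61%. Any cluster of the other cytoplasmic list was met by 18.3 and 18.2% of donor clusters, and by 11.6 and 12.8% of coding clusters. WT cytoplasm shared 51 with chromatin, 12.6% of its own and 3.4% of the chromatin clusters. S34F cytoplasm shared 53 with chromatin, 12.2 and 3.53%. Set beside them, 3-prime junction clusters of the cytoplasm met one on chromatin in 48.9% of cases for WT and 50.8% for S34F. Chromatin had far more 3-prime than donor clusters to be met. A cluster of any class on chromatin was met by 33.1 and 32.3% of cytoplasmic donor clusters, and by 30.5 and 37.6% of cytoplasmic coding clusters. By gene, the cytoplasmic lists shared 79 genes, 21.6% of the WT genes and 20.5% of the S34F genes, and 54 of the 1424 genes had a donor cluster in all 3 lists. Of the 134 WT donor clusters that met one, 66 met a coding cluster and 51 a donor cluster.

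The 34 clusters in both cytoplasmic lists had more reads in the S34F list in 16 and fewer in 18, with reads as deposited. The S34F list held 1.25 times the cluster reads of the WT list, and scaled to these totals 11 were higher and 23 lower, with a median log2 ratio of -0.42. Unscaled, the median log2 ratio of S34F to WT reads was -0.10, with a range from -1.85 in SAFB2 to 2.50 in PKM. SAFB2, a scaffold attachment factor, had 47 reads in the WT list and 13 in the S34F list. PKM, pyruvate kinase, had 14 and 79. NONO had 211 and 79. A donor cluster in U2AF1 itself had 17 and 27. Both lists thus had members on either side of equality, and with 1 list a group none of these ratios could be tested.

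**Figure D4:**
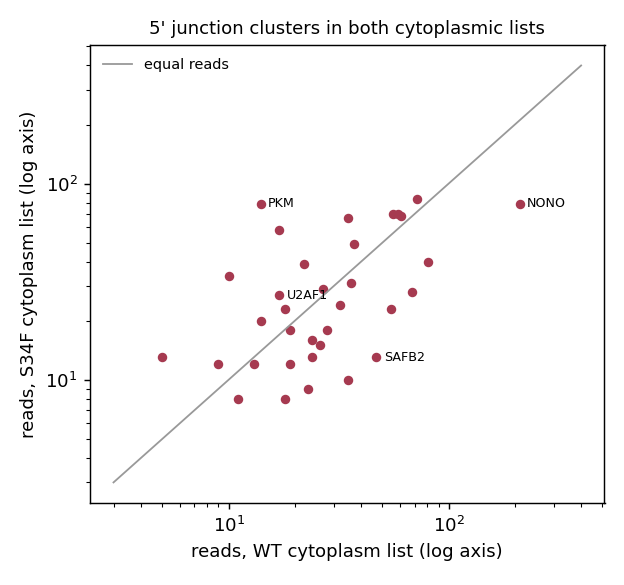
Reads of the 34 donor clusters found in both cytoplasmic lists, WT on the x axis and S34F on the y axis, both log axes. The line marks equal unscaled reads. 16 points lie above it and 18 below, with PKM and SAFB2 at the extremes of the ratio.

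By annotation, 10 donor clusters of WT cytoplasm overlapped a donor cluster in both other lists. Not all of these had donor letters: the SRSF9 clusters neither ended in GT nor held GTNAG in any list. The PRPF8 clusters lay at the window shown above whose letters resemble the other end of an intron. DDX17 had 61 reads in WT cytoplasm, 68 in S34F cytoplasm and 628 on chromatin. NUDT3, a diphosphoinositol polyphosphate phosphatase, had 37, 49 and 30, and MCM7, of the replicative helicase, had 68, 28 and 408. ADNP2, a zinc finger protein, had 19, 18 and 56. PRPF8, the core of the spliceosome, had 17, 58 and 42. ZFAND1, a stress granule factor, had 26, 15 and 46, and IARS 13, 12 and 24. MED6, of the Mediator complex, had 10, 34 and 19, and SRSF9, an SR splicing factor, 18, 8 and 42. Chromatin had the most reads in 6 of these and S34F cytoplasm in the other 4, among them NUDT3, PRPF8 and MED6. The chromatin list was also the deepest, with 4723555 cluster reads against 526075 and 658110.

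Some donor clusters had a 3-prime junction cluster close by. On chromatin 29.2% of donor clusters had one within 300 bases upstream on the same strand (26.9 to 31.6), at a median of 102 bases, against 18.9% of coding clusters. Intron clusters had 4.39% upstream. Downstream the shares of donor, coding and intron clusters were 7.33, 2.37 and 8.22%. By annotation a donor cluster lies at the end of an exon, so its distance to the start of that exon is set by exon length. Coding clusters can lie anywhere in an exon, and the part of this in the shares was not tested. In the cytoplasm 2.22% of WT donor clusters and 3.00% of S34F donor clusters had one upstream, against 1.15 and 1.40% of coding clusters. By gene, 935 of the 1014 chromatin genes with a donor cluster (92.2%) also had a 3-prime junction cluster, where 59.2% of all genes with a cluster had one. In the cytoplasm this was so for 70 of 365 genes with WT (19.2%, against 8.71% of all genes with a cluster) and 115 of 386 with S34F (29.8%, against 12%). These shares by gene were not matched for the number of clusters per gene, whose part was not tested.

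On chromatin, donor clusters were present in 11 of the 20 genes with any cluster that encode U1 snRNP or other donor factors and in 9 of 19 for 3-prime splice site and branch point factors. They were present in 9 of 14 SR factors, 12 of 28 hnRNP genes, 15 of 37 translation factors, 8 of 17 snoRNA hosts, 6 of 24 chaperones and 12 of 70 ribosomal protein genes. Over all genes with a chromatin cluster the share was 10.7%. These genes also had more clusters in total, all classes counted, with a median per gene of 26.0 in the U1 list and 27.0 in the hnRNP list. The median was lower in ribosomal protein genes (5.00) and snoRNA hosts (7.00), against 4.00 overall. Per cluster the donor share on chromatin ran from 1.90% in chaperones to 4.64% in snoRNA hosts, against 1.62% overall. In WT and S34F cytoplasm chaperones were below the overall share, at 0.806 and 0.787% against 1.52 and 1.51%. Translation factors had 3.94% in WT and 1.32% in S34F cytoplasm. The other gene lists were above the overall share in both.

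Examples from these lists include LUC7L3, a U1-associated protein, with 705 reads on chromatin and 92 in S34F cytoplasm. SF3B1, the U2 snRNP subunit at the branch point, had 384 on chromatin and 86 in WT cytoplasm. SRSF1, a founding SR protein, had 822 on chromatin and 61 in S34F cytoplasm. GAS5, a snoRNA host, had 622 on chromatin, 117 in S34F cytoplasm and 36 in WT cytoplasm, at 3 different positions. The WT position had 31 reads in S34F cytoplasm. The LUC7L3 clusters also lay at different positions. Ribosomal protein genes had fewer reads, for example RPL18 with 92 in WT cytoplasm, RPS14 with 70 in S34F cytoplasm and RPS19 with 91 on chromatin.

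RIP in HBEC asked whether U2AF1 precipitated RNA of the genes that held a donor cluster in Flp-In-293. Its counts are by gene, so RNA that spans an exon and the following intron is not told apart from spliced RNA. The libraries had 2582162 to 29769920 counts, and 11 of 12 basal epithelial markers were above 3 counts in every cytosol library, against 1 of 10 markers of leukocytes, fibroblasts and endothelium. Of all 11612 genes tested with edgeR's quasi-likelihood model (threshold 0.05 on p adjusted by Benjamini and Hochberg), 26 (0.224%) were higher in IP than in IgG and 130 (1.12%) were lower. The 1424 genes with a donor cluster in any list included 1303 that were tested, of which 12 (0.921%) were higher and 12 (0.921%) were lower. Their median log2 ratio was 0.07, against 0.03 over all genes tested, and 53.2% were above 0, against 51.4%. They were also more abundant, with a median of 30 CPM (counts scaled to a common library size) in WT cytosol against 18.4, and the part of abundance was not tested. Without the WT line, whose IP library was the deepest of the 3, none passed in either direction with edgeR (66 higher and 67 lower at an unadjusted p under 0.05). Of all genes 0.0172% were then higher and 0.129% lower. Without the FS line 3 (0.226%) were higher and 7 (0.527%) lower, against 0.081 and 0.624% of all genes. With the line left out of the model as a replicate block the counts were 0 higher (94 at an unadjusted p under 0.05) and 2 lower, and with DESeq2 they were 38 and 40. DESeq2 called 2.62% of all genes higher and 2.85% lower, and 2.76 and 2.91% of the genes with a donor cluster, so that the larger share of higher genes seen with edgeR was not found there. With edgeR and no filter on low counts the higher share was 1.52%, against 0.386% of all genes. With IP and IgG libraries only it was 0.894%, against 0.271%.

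Of the 12 higher genes 6 encoded ribosomal proteins and 2 translation factors. Among ribosomal protein genes 6 of 23 tested with a donor cluster rose, as did 3 of 54 without, and the medians were 0.37 and 0.32. That difference between the groups was not tested. RPS6, which had a donor cluster of 66 reads on chromatin, was at 3090, 3150 and 3010 CPM in the IP of the WT, S34F and FS lines and at 917, 1970 and 1490 in the IgG. All IP values were above all IgG values, and the log2 ratio was 0.97 (SE 0.16, edgeR adjusted p = 0.00707).

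EIF2S3, a subunit of the initiation factor that delivers the first tRNA, had 234, 143 and 112 CPM in IP and 85.7, 42.7 and 34.8 in IgG. Its log2 ratio of 1.44 (SE 0.31, edgeR adjusted p = 0.0281) was the highest among these genes, and the groups did not overlap. CTBP2, a transcriptional corepressor, followed at 1.40, HNRNPF at 1.21, CCNI at 1.10 and FTX, a lincRNA near XIST, at 1.06. Each of these had the IP above the IgG in all 3 lines.

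PIGO, an enzyme of GPI anchor synthesis, had 27.6, 17.4 and 34.2 CPM in IP and 83.4, 70.0 and 178 in IgG. Its log2 ratio was the lowest at -2.17 (SE 0.37, edgeR adjusted p = 0.00748), and the groups did not overlap. GANAB, an endoplasmic reticulum glucosidase, followed at -2.0, PSAP, the precursor of lysosomal saposins, at -1.64, APMAP at -1.43 and the amino acid transporter SLC1A5 at -1.35. SLC1A5 was lower in IP in the WT and FS lines but at 404 CPM in IP and 398 in IgG in the S34F line.

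The genes of the clusters named above mostly did not pass. U2AF1 was at 0.25 (SE 0.60, edgeR adjusted p = 0.908), NACA at 0.63 (SE 0.24, adjusted p = 0.272), PRPF8 at -0.62 (SE 0.22, adjusted p = 0.22) and EEF2 at 0.13 (SE 0.09, adjusted p = 0.593). PRKDC, the gene with the most donor clusters on chromatin, was at 0.08 (SE 0.30, edgeR adjusted p = 0.948).

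**Figure D5:**
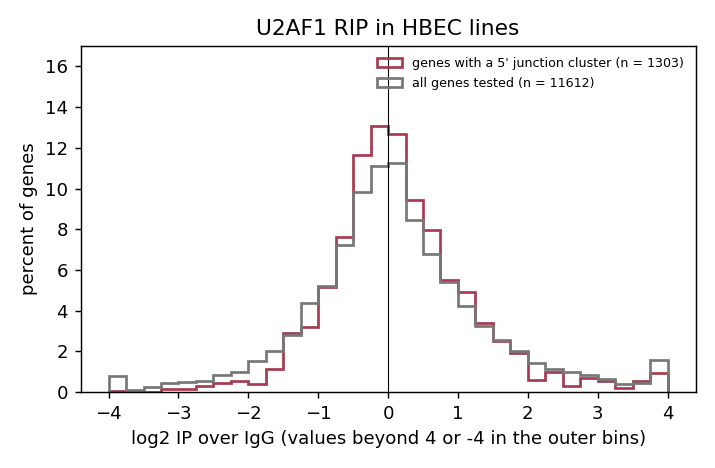
Percent of genes by log2 ratio of IP over IgG in the HBEC RIP, for the 1303 tested genes with a donor cluster and for all 11612 genes tested. The outlines largely coincide, with medians of 0.07 and 0.03.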

How the data were processed

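The members and gene lists were chosen with earlier results of these data known. In the 3 cluster lists the authors deposited read and conversion counts, in whole numbers, and for each cluster a T-to-C fraction, per the file headers. Every cluster had at least 4 reads and 2 conversion positions. For RIP the authors deposited expected counts by gene (26.3% of values not whole), which were rounded, and 119 repeated entries were dropped. TopHat is the only tool in the submitters' processing notes. The cluster caller, build and use of strand are not given in the sources used here. Clusters were compared in Python 3.11.15. RIP was tested with edgeR 4.0.16 (filterByExpr, TMM, quasi-likelihood test) over 9 libraries with the line as a block. The lines pair the libraries, and deviations of libraries of 1 line correlated at 0.0237 to 0.133. The lines are the only replicates, and they differ in U2AF1. With the line as a block, p-values measure how far these samples depart from 1 ratio common to the lines, not differences in level between lines. The cytosol libraries entered the estimate of that spread. The fit was checked on simulated counts. Named clusters are the 5 with the most reads per list, those in all 3 lists, the 5 genes with the most clusters on chromatin and the leading members of each gene list. Named RIP genes are the 5 highest and 5 lowest that passed, and the genes of named clusters. Alternatives included DESeq2 1.42.0. The polysome libraries were not used. Some items that this rule would name are not reported here.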

Additional observations from a re-analysis of the deposited data

How the results depend on the processing

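Each value in a series of 3 is for WT cytoplasm, S34F cytoplasm and WT chromatin. The donor share of clusters was 2.24, 2.19 and 1.68% with at least 10 reads, 2.80, 2.33 and 2.41% with at least 3 conversion positions and 1.21, 1.20 and 1.47% for coding exons alone. GTNAG stood in 40.9, 41.4 and 40.1% with at least 10 reads. Alternatives gave 16.8, 16.1 and 13.4% for GTAAGT or GTGAGT and, chosen after seeing the data, 16.8, 16.6 and 15.1% for AGGTNAG and 29.0, 32.3 and 35.7% at 30 to 45 bases. The median T-to-C fraction was 0.542, 0.526 and 0.935 with at least 10 reads and 0.550, 0.50 and 1.00 at 30 to 45 bases as well. Conversion events over all T readings, another quantity, gave 0.101, 0.0938 and 0.127. With an overlap of at least 50% of each cluster, 6.67% of WT and 5.99% of S34F cytoplasmic clusters were shared with chromatin, and 7.16% of WT clusters with S34F cytoplasm. In the RIP the counts of higher and lower genes with a donor cluster, 12 and 12, became 38 and 40 with DESeq2, 21 and 23 without a filter and 11 and 19 with IP and IgG libraries only. Without a filter these were 1.52 and 1.67% of those tested, against 0.386 and 1.53% of all genes. With IP and IgG libraries only the shares were 0.894 and 1.54%, against 0.271 and 1.78%. Without the replicate block the counts were 0 and 2 (0 and 0.153%, against 0 and 0.276% of all genes). Leaving out 1 line gave 0 to 8 higher and 0 to 16 lower, with none without WT and 3 and 7 without FS. Without the S34F line the 8 and 16 were 0.608 and 1.22%, against 0.164 and 1.53% of all genes. The causes were not tested. With 1 pooled list per group, replicate spread could not be seen, and low read counts limit single clusters.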
